A study of Homo sapiens with 15 samples.

Results

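The 10 genes described here encode enzymes that make, regenerate, break down or use glutathione, and were taken by symbol from the 62754 genes of the count table. GCLC, GCLM and GSS carry out synthesis, GSR regenerates reduced glutathione, GGCT and CHAC2 act in its turnover, and GPX1, GPX2, GPX4 and GPX8 belong to the glutathione peroxidase family. All 10 were found in the table and 9 passed the filter on low counts and were tested, the exception being GPX2.

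The cells were MCF10A, an established line of human breast epithelial cells labelled as wild type. Glutamine was added back to glutamine-free DMEM/F12 at 0.04, 0.12, 0.20 or 0.28 mM, and the fifth group had the 2.5 mM of the usual medium, called full medium here. Each group had 3 libraries, which the design text calls biological replicates, so there were 15 in all. According to the labels, cells of this line were maintained with mammary epithelial growth supplements, cholera toxin, penicillin and streptomycin. How long the cells were kept at each concentration is not given in the labels used here. What was measured is transcript abundance by sequencing of total RNA depleted of ribosomal RNA. Neither glutathione nor any protein was measured in the data used here.

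Glutathione is a small peptide of glutamate, cysteine and glycine, and glutamine is a major source of the glutamate. Glutamate-cysteine ligase, made of the catalytic subunit GCLC and the modifier subunit GCLM, joins glutamate to cysteine in the step that usually limits the rate. Glutathione synthetase, encoded by GSS, then adds glycine. Glutathione peroxidases spend reduced glutathione on hydrogen peroxide and lipid peroxides, and glutathione reductase, encoded by GSR, restores it with NADPH. GCLC, GCLM and, among the peroxidases, GPX2 are textbook targets of the transcription factor NRF2, which binds the antioxidant response element.

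The libraries held 3704170 to 13361406 gene counts, and ERCC spike-ins, RNAs of known amount added to each sample, took 1.03 to 1.58% of all counts. Replicate 3 at 0.04 mM, the shallowest library, and replicate 3 at 0.12 mM carried 2.97% and 1.62% of gene counts in the mitochondrial ribosomal RNAs MT-RNR1 and MT-RNR2, while the other 13 libraries had at most 0.402%. Libraries with a replicate number in common resembled each other (r of 0.184 to 0.489 after removal of group means, against -0.406 to 0.0549 between different numbers). Removal of group means ties these ranges together, because a positive r between same numbers lowers r between different ones. The test first set out for every comparison had no block, and the fit with the number as a block was an alternative to it. Because of this resemblance the calls are taken from the fit with the block. The words "rose" and "fell" are used only of genes with an adjusted p under 0.05 in that fit. Without the block, 0 of the 9 tested genes passed in any comparison by edgeR, where at most 0.289% of all tested genes did, or by DESeq2, and at an unadjusted p under 0.05 only GSS at 0.04 mM, at 0.20 mM and in the mean of the limited groups and GCLM between 0.04 and 0.28 mM did. The block decides every call below, and the values without it are given beside the calls. Of 15 epithelial markers, 14 were tested, with a summed level of 20262 to 28318 CPM (counts scaled to a common library size) at 0.04 mM and 20340 to 29098 CPM in full medium. Of the 10 fibroblast markers, POSTN, DCN, COL1A1 and FAP were expressed, with means of 100.1, 29.7, 27.4 and 13.8 CPM at 0.04 mM, against 88.1, 18.4, 20.0 and 11.6 CPM in full medium. The fibroblast markers LUM and THY1, the immune markers CD3E, CD3D, MS4A1 and NKG7 and the endothelial markers CDH5, CLDN5 and EMCN had 0 counts in all libraries.

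The set of promoter windows used here (RefSeq, GRCh38.p14) held sequence just upstream of the start for 7 of the 10 genes. GGCT, GSR and GSS had no entry in that set. The core letters of the antioxidant response element, TGACNNNGC, were searched on both strands in the 250 bases upstream. They occurred once each in GCLM, 34 bases upstream of the start, and in GPX2, 122 bases upstream, and in 10.9% of the 35116 windows of the set. GCLC, CHAC2, GPX1, GPX4 and GPX8 had no match in this window. The first 130 upstream bases of both ligase subunits and of GPX2 are shown 5′ to 3′ on the strand of the gene, because the ligase subunits are the members that rose and GPX2 shares the match. Capitals mark the match, which lies on the opposite strand to the gene in both cases. The windows are chr6:53545102-53545231 for GCLC, chr1:93909431-93909560 for GCLM and chr14:64942746-64942875 for GPX2, all on the minus strand.
GCLC: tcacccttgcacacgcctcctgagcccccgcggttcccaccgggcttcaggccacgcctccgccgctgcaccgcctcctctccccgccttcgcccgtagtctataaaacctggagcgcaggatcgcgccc
GCLM: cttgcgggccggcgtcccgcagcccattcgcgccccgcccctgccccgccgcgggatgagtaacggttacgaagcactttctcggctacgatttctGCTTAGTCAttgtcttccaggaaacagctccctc
GPX2: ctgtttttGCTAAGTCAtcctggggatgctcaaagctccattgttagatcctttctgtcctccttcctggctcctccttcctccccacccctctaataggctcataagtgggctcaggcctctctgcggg
The windows of GCLC, GPX4 and CHAC2 also had no match to the C/EBP-ATF response element TGATGNAAT, which ATF4 binds, or to the E-box CACGTG. The first was found in GPX8, 190 bases upstream, and in 0.888% of all windows, and the second in GPX1, 24 bases upstream, and in 6.34% of all windows. These are matches of letters, and binding was not measured.

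In the fit with the block, transcripts of the synthesis enzymes GCLC and GSS changed in opposite directions at 0.04, 0.12 and 0.20 mM glutamine. The ligase subunit GCLC rose at 0.04, 0.12 and 0.20 mM, by 1.201-fold, 1.30-fold and 1.21-fold over full medium. The modifier subunit GCLM rose at 0.04 mM only, by 1.22-fold. Glutathione synthetase, GSS, fell at the 3 concentrations where GCLC rose, to 0.723, 0.829 and 0.773 of full medium. Of these calls, only that of GSS at 0.04 mM held in every alternative run with the block. GSR, GGCT, CHAC2, GPX1, GPX4 and GPX8 did not pass the test at any concentration.

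With the block, 3 of the 9 tested genes passed at 0.04 mM (2 rose and 1 fell), where 13.4% of all tested genes did. At 0.12 mM 2 passed (GCLC and GSS), against 8.31% of all genes, and at 0.20 mM the same 2, against 14.8%. At 0.28 mM 0 passed by edgeR or DESeq2, against 2.08% of all genes by edgeR, although GCLC and GSS had an unadjusted p under 0.05, as 15.9% of genes did. For the mean of the 4 limited groups 2 passed (GCLC and GSS), against 17.1%, and between 0.04 and 0.28 mM 0 passed by either tool, against 0.0434%. In that last comparison GCLM, GSS and GPX1 had an unadjusted p under 0.05, as 9.02% of genes did, with log2 changes of 0.34, -0.25 (adjusted p = 0.361) and -0.81 (adjusted p = 0.302). The median log2 change of the 9 genes at 0.04 mM was -0.12, beside 0.01 over all tested genes. Without the block 6 of 13828 genes (0.0434%) passed at 0.04 mM, 0 (0%) at 0.12 mM, 2 (0.0145%) at 0.20 mM, 0 at 0.28 mM, 40 (0.289%) in the mean and 0 between 0.04 and 0.28 mM. At an unadjusted p under 0.05 the shares without the block were 11.6%, 8.04%, 10.2%, 4.45%, 13% and 2.06% in the same order, and DESeq2 without the block passed 148, 23, 41, 1 and 245 genes in those with full medium.

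**Figure D1:**
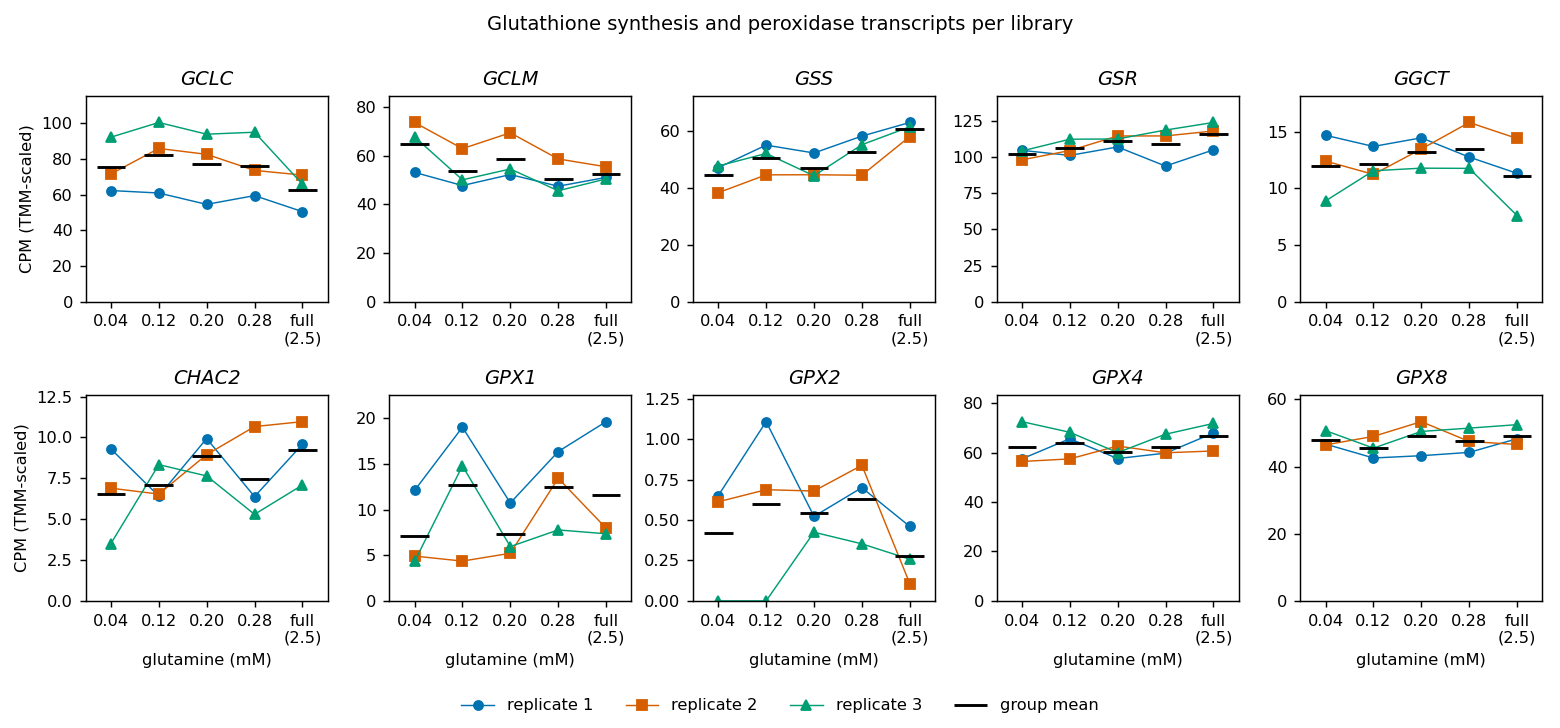
Levels of the 10 transcripts in CPM after TMM scaling (vertical axes, starting at 0) at each glutamine concentration (horizontal axes, mM). Coloured points are single libraries, lines join libraries of the same replicate number, and black bars are means of 3; GSS points lie below the full-medium point of their own number in all 12 limited libraries and GCLC points lie above it.

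GSS (ENSG00000100983, chromosome 20, 34928432 to 34956027 in GRCh38.p14) encodes the enzyme that completes glutathione. It had 47.1, 38.3 and 47.7 CPM in replicates 1, 2 and 3 at 0.04 mM, 55.1, 44.6 and 52.1 CPM at 0.12 mM, 52.3, 44.6 and 44.3 CPM at 0.20 mM, 58.2, 44.5 and 55.2 CPM at 0.28 mM, and 63.0, 58.1 and 61.5 CPM in full medium. At 0.04, 0.12 and 0.20 mM all libraries lay below all those of full medium, and at 0.28 mM replicate 1 overlapped them. The share of the 13828 tested genes whose groups did not overlap in either direction was 15.2%, 12.2% and 15.5% at those 3 concentrations. In the fit with the block, the log2 change of GSS was -0.47 at 0.04 mM (SE 0.0879, edgeR quasi-likelihood test, adjusted p = 0.00049), -0.27 at 0.12 mM (SE 0.084, adjusted p = 0.04) and -0.37 at 0.20 mM (SE 0.0832, adjusted p = 0.00275). At 0.28 mM it was -0.21 (SE 0.0825, adjusted p = 0.182), with lower values in 3 of 3 pairs. Over the mean of the 4 limited groups, GSS fell, by a log2 change of -0.33 (SE 0.065, adjusted p = 0.000586). In bulk RNA, less transcript per cell and fewer cells with the transcript cannot be told apart.

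Without the block the change of GSS at 0.04 mM was nearly the same in size, -0.46, with a wider error (SE 0.13, adjusted p = 0.179), and at 0.12 mM, at 0.20 mM and in the mean the adjusted p-values without it were 0.623, 0.403 and 0.166. The call at 0.04 mM held in the fit with the block in every alternative run, leaving out each library included, with log2 changes of -0.52 to -0.42. The call at 0.12 mM was lost with DESeq2 (adjusted p = 0.0677), with no filter (adjusted p = 0.0729), with the GC and length offset (adjusted p = 0.0509) and with the compared groups alone (adjusted p = 0.165). It was also lost without any 1 of 5 libraries, with adjusted p of 0.108, 0.144 and 0.0797 without replicates 1, 2 and 3 at 0.12 mM and 0.183 and 0.0789 without replicates 2 and 3 of full medium. At 0.20 mM the call was lost only when libraries were scaled to the ERCC spike-ins (log2 change -0.42, adjusted p = 0.0559).

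GCLC (ENSG00000001084, chromosome 6, 53497341 to 53545101) carries the active site of the ligase. It had 62.3, 71.6 and 92.2 CPM in replicates 1, 2 and 3 at 0.04 mM, 60.9, 85.9 and 100.4 CPM at 0.12 mM, 54.5, 82.6 and 93.9 CPM at 0.20 mM, 59.5, 73.6 and 94.97 CPM at 0.28 mM, and 50.5, 71.0 and 65.9 CPM in full medium. Replicate 3 was the highest library of each limited group but not of full medium, and the ranges of limited and full medium overlapped at every concentration. Within replicate numbers, each of the 12 limited libraries was above its full-medium counterpart. The same held for 6.91% of tested genes, and 7.12% lay below in all 12, as GSS did. These comparisons share the 3 full-medium libraries. In the fit with the block GCLC rose by a log2 change of 0.26 at 0.04 mM (SE 0.0887, adjusted p = 0.0437), 0.38 at 0.12 mM (SE 0.0862, adjusted p = 0.0052) and 0.28 at 0.20 mM (SE 0.0856, adjusted p = 0.0263). At 0.28 mM the change was 0.27 (SE 0.0857, adjusted p = 0.0909), close in size to those that passed. The mean of the 4 limited groups was higher by 0.30 (SE 0.0693, adjusted p = 0.00288).

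The calls of GCLC rested on replicate 3 of full medium. Without that library the log2 change was 0.16 at 0.04 mM, 0.27 at 0.12 mM, 0.17 at 0.20 mM and 0.19 for the mean, and the adjusted p-values were 0.296, 0.0712, 0.240 and 0.107. When libraries were scaled to the spike-ins, which moved the median of all genes to -0.18 at 0.12 mM, GCLC had changes of 0.26, 0.20 and 0.22 at 0.04, 0.12 and 0.20 mM and passed at none (adjusted p = 0.314, 0.352 and 0.373). At 0.04 mM the call was lost with DESeq2 (0.27, adjusted p = 0.0553), with no filter (0.25, adjusted p = 0.0811) and with the compared groups alone (0.26, adjusted p = 0.118). At that concentration it was also lost without replicate 1 (0.20, adjusted p = 0.255) or replicate 3 (0.25, adjusted p = 0.113) of that group, and at 0.20 mM without replicate 2 (0.24, adjusted p = 0.133) or replicate 3 (0.24, adjusted p = 0.150) of that group. Without the block the change at 0.04 mM was 0.26 (SE 0.227, adjusted p = 0.700), and at 0.12 mM, at 0.20 mM and in the mean the adjusted p-values were 0.691, 0.628 and 0.474. Exons of AL033397.1 on the same strand and of AL033397.2 on the opposite strand overlap 6.20% of GCLC exonic length, and the antisense gene GCLC-AS1 had 0 to 10 counts per library.

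GCLM (ENSG00000023909, chromosome 1, 93885199 to 93909430) raises the affinity of the ligase for glutamate. It had 53.1, 73.6 and 67.7 CPM in replicates 1, 2 and 3 at 0.04 mM, 47.7, 62.8 and 50.03 CPM at 0.12 mM, 52.2, 69.3 and 54.5 CPM at 0.20 mM, 47.4, 58.6 and 45.5 CPM at 0.28 mM, and 51.0, 55.4 and 50.4 CPM in full medium. Replicate 2 was the highest library in all 5 groups, and the group ranges overlapped. GCLM rose at 0.04 mM (log2 change 0.28, SE 0.0879, adjusted p = 0.0291, higher in 3 of 3 pairs). Without the block that change was 0.30 (SE 0.152, adjusted p = 0.461). The changes at 0.12 mM, 0.20 mM and 0.28 mM were 0.03 (adjusted p = 0.908), 0.16 (adjusted p = 0.230) and -0.05 (adjusted p = 0.814). Between 0.04 and 0.28 mM, GCLM differed by 0.34 (SE 0.0878, adjusted p = 0.181), which did not pass the correction over all genes.

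The GCLM call at 0.04 mM was lost without replicate 2 (0.28, adjusted p = 0.112) or replicate 3 (0.21, adjusted p = 0.163) of that group and without replicate 2 (0.20, adjusted p = 0.203) or replicate 3 (0.29, adjusted p = 0.0571) of full medium. It was lost as well with ERCC scaling (0.28, adjusted p = 0.255), with no filter (0.27, adjusted p = 0.0818) and with the compared groups alone (0.28, adjusted p = 0.0888). Without the 2 libraries rich in mitochondrial ribosomal RNA the log2 changes at 0.04 mM were 0.24 for GCLC (adjusted p = 0.120) and 0.21 for GCLM (adjusted p = 0.159). GSS at 0.12 mM changed by -0.29 without them (adjusted p = 0.0588). The part of mitochondrial ribosomal RNA in these results was not tested. An offset per library for GC content and length left changes of 0.18 for GCLC and 0.18 for GCLM at 0.04 mM (adjusted p = 0.194 and 0.210) and of 0.19 for GCLC at 0.20 mM (adjusted p = 0.190), and GSS at 0.04 mM stayed at -0.45 (adjusted p = 0.000774).

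**Figure D2:**
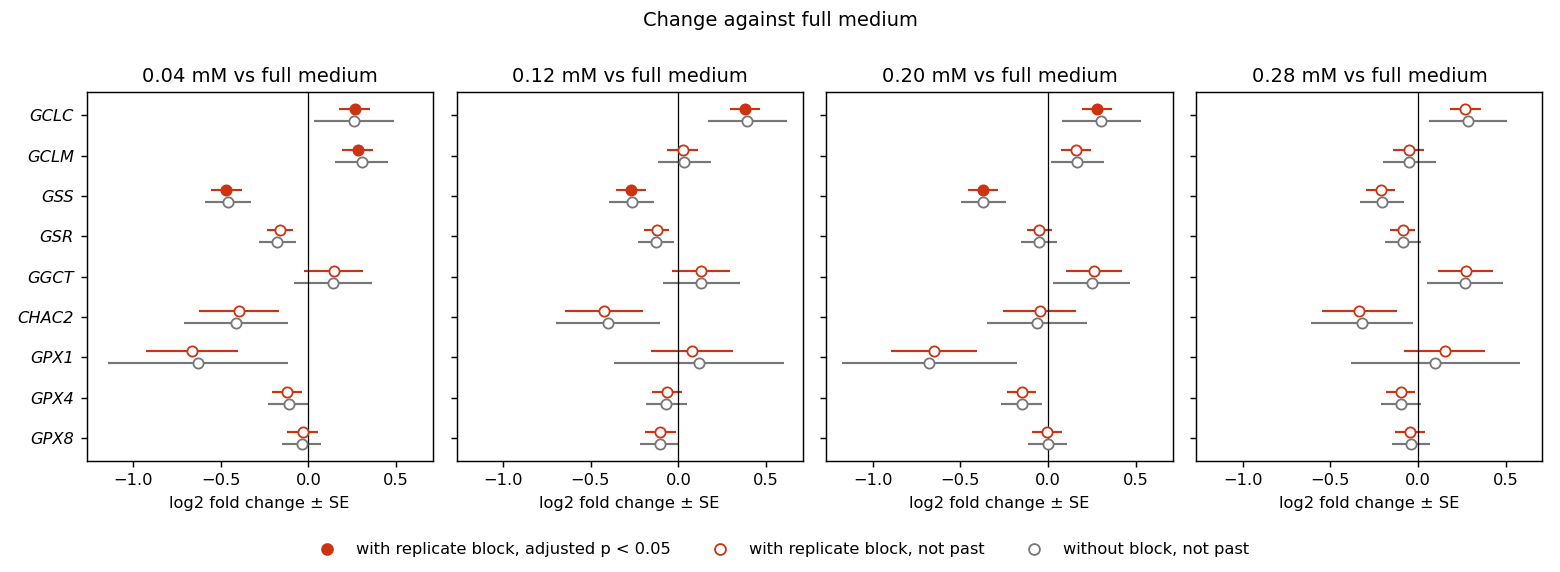
Log2 fold change of the 9 tested genes at each limited concentration over full medium (horizontal axes), with bars of 1 SE, from the fit with the block (red) and the fit without it (grey). Filled points passed an adjusted p of 0.05: GCLC, GCLM and GSS at 0.04 mM and GCLC and GSS at 0.12 and 0.20 mM, all in the fit with the block.

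The ratio of counts of 2 genes in a library does not depend on how the library is scaled. GSS over GCLC, the second step over the catalytic subunit of the first, had log2 values of -0.40, -0.90 and -0.95 in replicates 1, 2 and 3 at 0.04 mM, against 0.32, -0.29 and -0.10 in full medium. All 3 libraries at 0.04 mM lay below those of full medium. The mean was -0.75 ± 0.303 at 0.04 mM and -0.02 ± 0.312 in full medium (SD, n = 3 each), a difference of -0.73 or 0.604-fold, with p = 0.1 in a 2-sided exact permutation test, the smallest that 3 against 3 libraries allow (0.72 after adjustment over the 12 ratio comparisons). At 0.12 mM, 0.20 mM and 0.28 mM the differences were -0.66, -0.65 and -0.49, with exact permutation p of 0.2, 0.3 and 0.3. The ratio was lower than in the full-medium library of the same number in 12 of 12 limited libraries. This follows from GSS lying below and GCLC above in all 12, and is not a separate result. The difference and the separation at 0.04 mM likewise restate the changes of these 2 genes in the same libraries, and add no support. The share of other gene pairs that separate in this way was not computed.

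GCLM over GCLC compares the subunits of the ligase. At 0.04 mM its log2 values were -0.23, 0.04 and -0.45 and in full medium 0.02, -0.36 and -0.39, which overlapped. The mean difference was 0.03 (exact permutation p = 0.9), and at 0.12 mM, 0.20 mM and 0.28 mM it was -0.36, -0.12 and -0.33 (p = 0.3, 0.8 and 0.6). The smallest p that 3 against 3 libraries allow is 0.1. At 0.12 mM the ratio was lower in 3 of 3 pairs, where an exact sign-flip test over the pairs gave p = 0.25, the smallest that 3 pairs allow.

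**Figure D3:**
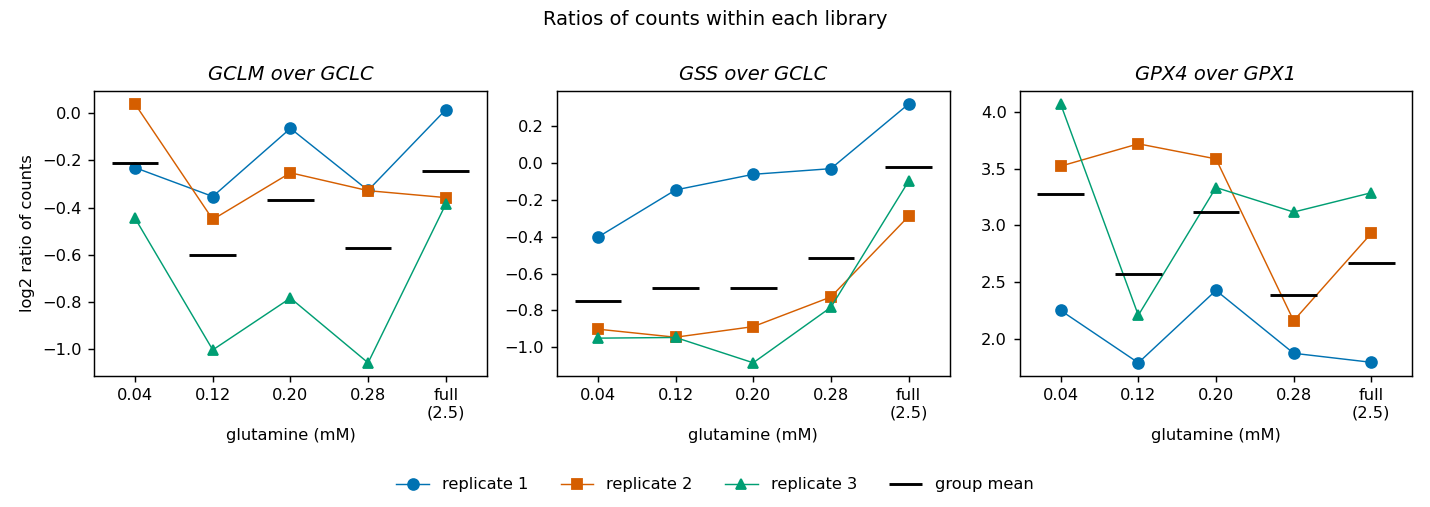
Log2 ratio of deposited counts within each library (vertical axes) at each glutamine concentration (horizontal axes, mM) for GCLM over GCLC, GSS over GCLC and GPX4 over GPX1. Points are libraries, lines join the same replicate number and black bars are means of 3; GSS over GCLC is lower in every limited library than in the full-medium library of its number.

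The reductase transcript did not pass the test at any concentration. GSR (ENSG00000104687, chromosome 8, 30678066 to 30727846) had 104.5, 97.9 and 104.1 CPM in replicates 1, 2 and 3 at 0.04 mM and 104.8, 117.9 and 123.7 CPM in full medium. The groups did not overlap, as for 15.2% of all tested genes at 0.04 mM, but only by the narrow gap between 104.5 and 104.8 CPM. The log2 change was -0.16 (SE 0.0739, adjusted p = 0.146), with a 95% interval of -0.31 to -0.02, and the changes at the other concentrations were -0.12 to -0.05. Of the 12 limited libraries, 11 lay below the full-medium library of their number. The comparisons share the 3 full-medium libraries, and the share of all genes with such a count was not computed.

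Neither gene of turnover passed the test. GGCT (ENSG00000006625, chromosome 7, 30496621 to 30504829), which releases 5-oxoproline from gamma-glutamyl peptides, had 14.7, 12.4 and 8.90 CPM in replicates 1, 2 and 3 at 0.04 mM and 11.3, 14.4 and 7.60 CPM in full medium, with overlap. Its log2 changes over the 4 concentrations were 0.13 to 0.27, with adjusted p of 0.285 to 0.702. Its values are uncertain, because AC005154.5 on the same strand overlaps 27.6% of its exonic length. CHAC2 (ENSG00000143942, chromosome 2, 53767783 to 53775196), which cleaves glutathione itself, had 9.30, 6.90 and 3.50 CPM at 0.04 mM and 9.58, 10.97 and 7.09 CPM in full medium. Its change at 0.04 mM was -0.40 (SE 0.227, adjusted p = 0.268), lower in 3 of 3 pairs, with a 95% interval of -0.84 to 0.05 that holds both no change and a fall well past that of GSS.

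Among the peroxidases, none of the 3 tested genes passed at any concentration in the fit with the block, and the selenoprotein GPX1 varied widely between libraries. GPX4 (ENSG00000167468, chromosome 19, 1103994 to 1106779), which reduces lipid hydroperoxides in membranes and guards against ferroptosis, had 57.5, 56.4 and 72.5 CPM in replicates 1, 2 and 3 at 0.04 mM and 67.9, 60.6 and 71.8 CPM in full medium. Its log2 change was -0.12 at 0.04 mM (95% interval -0.29 to 0.04, adjusted p = 0.374), -0.15 at 0.20 mM (95% interval -0.31 to 0.01, adjusted p = 0.227), and -0.06 and -0.10 at 0.12 and 0.28 mM. Of the 12 limited libraries, 10 lay below the full-medium library of their number, again without a share of all genes to set beside it. GPX8 (ENSG00000164294, chromosome 5, 55160171 to 55167297), a peroxidase of the endoplasmic reticulum, had 46.7, 46.4 and 50.7 CPM at 0.04 mM and 48.3, 46.6 and 52.5 CPM in full medium. Its change of -0.03 had a 95% interval of -0.21 to 0.14.

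GPX1 (ENSG00000233276, chromosome 3, 49357176 to 49358353), the main cytosolic peroxidase, had 12.1, 4.90 and 4.31 CPM in replicates 1, 2 and 3 at 0.04 mM, 19.0, 4.36 and 14.8 CPM at 0.12 mM, 10.7, 5.21 and 5.95 CPM at 0.20 mM, 16.3, 13.4 and 7.77 CPM at 0.28 mM, and 19.6, 7.96 and 7.35 CPM in full medium. Replicate 1 was the highest library of every group. At 0.04 mM the log2 change was -0.66 (SE 0.261, adjusted p = 0.0879) and at 0.20 mM -0.65 (SE 0.246, adjusted p = 0.0690), with 3 of 3 pairs lower in both. At 0.12 and 0.28 mM it was 0.08 (adjusted p = 0.894) and 0.15 (adjusted p = 0.808). The changes did not follow the order of the concentrations. The call depends on the fit. With no filter on low counts GPX1 passed at 0.04 mM (-0.68, adjusted p = 0.00828) and 0.20 mM (-0.66, adjusted p = 0.00586). It passed at both when only the compared groups were fitted (adjusted p = 0.0243 and 0.0138). Both kinds of fit were chosen after the data were seen. In both, GPX1 also passed between 0.04 and 0.28 mM, with the lower level at 0.04 mM. At 0.20 mM it also passed without the libraries rich in mitochondrial ribosomal RNA (adjusted p = 0.0414).

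Reads of GPX1 may be shared with its processed copy GPX1P1 on chromosome X, which had 27 to 65 counts per library. In edgeR's fit with the block GPX1P1 changed by 0.49 at 0.04 mM (SE 0.238, adjusted p = 0.182), opposite in sign to GPX1. At 0.20 mM it changed by -0.18 (SE 0.237, adjusted p = 0.676), the same sign as GPX1. Its changes at 0.12 and 0.28 mM were -0.08 and -0.49 (adjusted p = 0.888 and 0.321), opposite in sign to GPX1. The CPM of GPX1 and GPX1P1 summed to 18.1, 12.9 and 17.0 at 0.04 mM, against 25.1, 14.3 and 13.3 in full medium. These sums overlapped and did not differ in one direction within pairs. At 0.20 mM the sums were 15.2, 12.6 and 9.98, each below the full-medium sum of its number, though the ranges overlapped. GPX1 is therefore reported as uncertain. The log2 count ratio of GPX4 over GPX1 was 2.25, 3.52 and 4.07 at 0.04 mM, against 1.79, 2.93 and 3.29 in full medium, a difference of 0.61 (exact permutation p = 0.4).

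GPX2 (ENSG00000176153, chromosome 14, 64939158 to 64942745), known mainly from gut epithelium, was barely detected. It had 7, 4 and 0 counts in replicates 1, 2 and 3 at 0.04 mM, 14, 6 and 0 counts at 0.12 mM, 6, 6 and 4 counts at 0.20 mM, 9, 7 and 3 counts at 0.28 mM, and 5, 1 and 2 counts in full medium. The group sums in the same order were 11, 20, 16, 19 and 8, and 74 in all of 135756266 gene counts. A count of 0 allows up to 0.809 CPM in replicate 3 at 0.04 mM and 0.568 CPM in replicate 3 at 0.12 mM, limits that cover counting error only and lie above the 0.108 to 0.461 CPM of full medium. In 10 of the 12 limited libraries the CPM of GPX2 was above that of the full-medium library of the same number. These comparisons rest on the 5, 1 and 2 counts of full medium. The share of all genes with such a count was not computed, and no direction is read from it. GPX2 did not pass the filter on low counts, and no test of it is given here.

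Per kilobase of exon, the peroxidase GPX4 and the reductase GSR were the most abundant of the 10 transcripts both at 0.04 mM and in full medium. At 0.04 mM the mean levels in RPKM were 30.8 for GPX4, 27.2 for GSR, 12.4 for GPX8, 11.95 for GCLM, 8.72 for GCLC, 7.51 for GGCT, 7.19 for GSS, 4.97 for CHAC2, 4.97 for GPX1 and 0.281 for GPX2 (n = 3). In full medium they were 33.1 for GPX4, 30.7 for GSR, 12.7 for GPX8, 9.86 for GSS, 9.64 for GCLM, 8.14 for GPX1, 7.22 for GCLC, 6.97 for CHAC2, 6.96 for GGCT and 0.184 for GPX2. Of neighbours in the order, the libraries did not overlap at 0.04 mM between GPX4 and GSR, GSR and GPX8, and GPX1 and GPX2. In full medium they did not overlap between GSR and GPX8, GPX8 and GSS, and GGCT and GPX2. The libraries of GSS overlapped those of GCLC and GGCT at 0.04 mM, and in full medium its lowest library, at 9.41 RPKM, was above the highest of GCLC, 8.21 RPKM, and of GGCT, 9.02 RPKM.

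The other genes around glutathione are given by list, with log2 changes at 0.04 mM from the fit with the block unless another concentration is named. At 0.04 mM 13.4% of all tested genes passed, which is the share to set beside the count of each list. Of 6 tested genes of cystine and cysteine supply, 2 rose and 0 fell (median log2 change 0.50, beside 0.01 over all genes, of which 7.21% rose and 6.23% fell). At 0.12 mM 0 of them passed (median 0.17), at 0.20 mM 1 rose and 0 fell (median 0.05), and at 0.28 mM 0 passed (median 0.10). SLC7A11, the cystine importer, had 105.8 ± 50.02 CPM at 0.04 mM and 69.2 ± 15.5 CPM in full medium (SD, n = 3 each, log2 change 0.51, SE 0.109, adjusted p = 0.00171). The neutral amino acid carrier SLC1A4 had 17.7 ± 3.07 CPM at 0.04 mM and 10.2 ± 2.50 CPM in full medium (log2 change 0.73, SE 0.182, adjusted p = 0.00642). CTH, which makes cysteine from cystathionine, and the glutamine carrier SLC1A5 had changes of 0.49 (adjusted p = 0.305) and 0.11 (adjusted p = 0.315).

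Of 10 genes of the NRF2 and NRF1 regulators, 4 rose and 0 fell (median 0.21). At 0.12 mM 3 rose and 0 fell, at 0.20 mM 2 rose and 1 fell, and at 0.28 mM 0 passed. The shares of all tested genes that passed there were 8.31%, 14.8% and 2.08%. NFE2L2, which encodes NRF2 itself, had 118.7 ± 13.4 CPM at 0.04 mM and 98.8 ± 4.28 CPM in full medium (log2 change 0.25, SE 0.0687, adjusted p = 0.0117), with 20.9% of its exonic length shared with other genes. MAFF and MAFG, small MAF proteins that pair with NRF2, rose by 0.52 (adjusted p = 0.00267) and 0.37 (adjusted p = 0.0104). BACH1, a repressor that competes for the same element, rose as well, by 0.33 (adjusted p = 0.00909).

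Of 15 tested thioredoxin, peroxiredoxin, catalase and superoxide dismutase genes, 3 rose and 2 fell. The cytosolic thioredoxin reductase TXNRD1 rose by 0.35 (adjusted p = 0.00605) and SOD2 by 0.24 (adjusted p = 0.0189), while the mitochondrial thioredoxin TXN2 fell by 0.42 (adjusted p = 0.0033) and the peroxiredoxin PRDX2 by 0.25 (adjusted p = 0.0259). The fifth was TXN, cytosolic thioredoxin, which rose by 0.33 (adjusted p = 0.0265) and falls outside the rule for named genes.

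Among 9 genes of glutathione transport, 1 rose and 3 fell. The mitochondrial carriers SLC25A11 and SLC25A39, the second of which imports glutathione, fell by 0.46 (adjusted p = 0.000175) and 0.27 (adjusted p = 0.0131), and SLC25A10, with 46.6% of its exonic length shared, fell by 0.66 (adjusted p = 0.0263). The export pump ABCC2 rose by 0.58 (adjusted p = 0.0129). Of 7 genes of glutathione breakdown, 0 rose and 1 fell. CNDP2, which splits cysteinylglycine, had 112.9 ± 11.6 CPM at 0.04 mM and 149.7 ± 4.87 CPM in full medium (-0.42, SE 0.0703, adjusted p = 0.000161). CHAC1, the inducible relative of CHAC2, had a change of 1.32 with a large error (SE 0.563, adjusted p = 0.118), ANPEP 0.19 (adjusted p = 0.158) and OPLAH -0.21 (adjusted p = 0.264).

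Of 12 tested glutathione transferase genes, 2 rose and 0 fell: the prostaglandin E synthase PTGES (0.40, adjusted p = 0.000426) and the membrane-bound MGST1 (0.30, adjusted p = 0.00116). GSTZ1 and GSTO1 followed with -0.30 (adjusted p = 0.210) and 0.13 (adjusted p = 0.264). Of 7 glutaredoxin and glyoxalase genes 0 passed after adjustment in edgeR's test. GLRX had a log2 change of 0.43 and GLRX3 of 0.17. At 0.12 and at 0.20 mM 1 gene of this list rose and 0 fell, where 8.31% and 14.8% of all tested genes passed. Of 11 genes listed under selenocysteine incorporation, 1 rose and 2 fell. What each of them does for GPX1, GPX2 and GPX4 was not tested. SEPHS1 fell by 0.30 (adjusted p = 0.00457) and EIF4A3 by 0.26 (adjusted p = 0.0139), and SECISBP2L rose by 0.30 (adjusted p = 0.0444).

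Of 18 tested genes of NADPH supply, which feeds glutathione reductase, 2 rose and 1 fell. MTHFD2L rose by 0.38 (adjusted p = 0.0151) and malic enzyme ME1 by 0.31 (adjusted p = 0.0283), the folate enzyme ALDH1L1 fell by 0.75 (adjusted p = 0.00775), and MTHFD2 had a change of 0.22 (adjusted p = 0.0692). Of 10 tested genes of lipid peroxidation control, 0 rose and 1 fell, namely LPCAT3 (-0.34, adjusted p = 0.0293), which shares 65.6% of its exonic length with other genes. ACSL4 had 0.21 (adjusted p = 0.0640), DHODH -0.43 (adjusted p = 0.0699) and ALOX15B 0.23 (adjusted p = 0.187). At 0.20 mM 2 genes of this list rose and 0 fell, where 14.8% of all tested genes passed. At 0.12 and 0.28 mM 0 passed. The remaining peroxidases GPX3, GPX5, GPX6 and GPX7 did not pass the filter on low counts. Without the block, 0 genes of these lists passed at 0.04 mM.

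**Figure D4:**
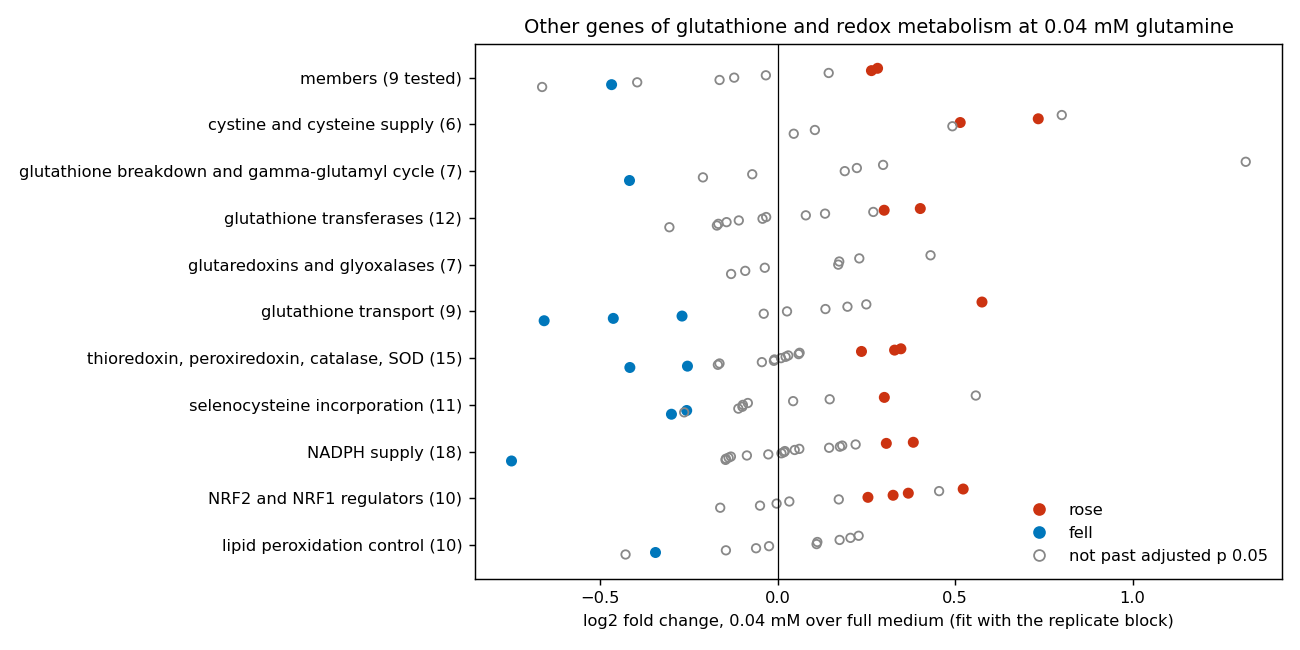
Log2 fold change at 0.04 mM over full medium (horizontal axis) of every tested gene of each list, from the fit with the block, with the number tested in brackets. Red points rose, blue points fell and open points did not pass an adjusted p of 0.05; the regulators of NRF2 and NRF1 hold 4 red and 0 blue points.

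Markers of other cell types moved at 0.04 mM as well. Of 10 fibroblast markers 4 were tested and 2 rose, DCN by 0.62 (adjusted p = 0.00109) and COL1A1 by 0.46 (adjusted p = 0.0193), with a summed level of 159 to 183 CPM at 0.04 mM and 109.6 to 168 CPM in full medium. Of 8 endothelial markers 1 was tested, PECAM1, which rose by 0.81 (adjusted p = 0.0136), with a summed level of 6.44 to 12.7 CPM at 0.04 mM and 3.96 to 5.80 CPM in full medium. Of 10 immune markers 1 was tested and 0 passed, with a summed level of 2.43 to 3.35 CPM at 0.04 mM and 1.66 to 1.83 CPM in full medium. Of 14 tested epithelial markers 2 rose and 1 fell, where 7.21% of all tested genes rose and 6.23% fell. The part of these transcripts in the results was not tested.

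The genes most like each member were found over the 15 libraries, as Pearson's r of log2 CPM with the mean of each replicate number removed, among genes with a mean of at least 5 CPM. For GCLC they were ALDH3A2 (r = 0.912), GID4 (0.909) and TOB1 (0.898), and for GCLM ATP2C2-AS1 (0.883), HRH1 (0.879) and KCMF1 (0.872). For GSS they were EEF2K (0.937), CHCHD4 (0.923) and CC2D1B (0.915), and for GSR FCF1 (0.888), RIOX2 (0.866) and C1QBP (0.859). Those of GPX1 were the ribosomal protein genes RPL37A (0.925) and RPL37 (0.923) with NAA10 (0.920), and those of GPX4 were NFATC1 (0.900), POMGNT1 (0.897) and TMEM179B (0.889). CHAC2 was most like CDC7 (0.889), ARFRP1 (0.879) and RSL1D1 (0.862), GGCT most like STX3 (0.804), ZNF496 (0.803) and MIR23AHG (0.793), and GPX8 most like DUS4L-BCAP29 (0.816), CLDN1 (0.807) and B3GALT6 (0.779). Between the ligase subunits GCLC and GCLM r was 0.08. The points share groups and library depth, and these coefficients are descriptions without a test.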

How the data were processed

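The authors deposited 1 table of integer counts per gene for 62754 Ensembl genes and 92 ERCC spike-ins in 15 libraries, and these counts were used as deposited. Per the labels' protocols, libraries were made from total RNA with the KAPA HyperPrep kit with RiboErase. Per the submitters' processing notes the build was GRCh38.p14. No aligner, counting rule or strand setting is named in the sources used here. Each of the 15 columns matched a sample, and 0 were left over.

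Genes were kept by filterByExpr (minimum count 10, total 15), which left 13828 genes with at least 99.72% of each library's counts. They were scaled by TMM and tested with edgeR 4.0.16 (R 4.3.3) in 1 quasi-likelihood fit of all libraries, first with 1 term per group and then with the replicate number added. Adjusted p-values are Benjamini-Hochberg over all tested genes, with a threshold of 0.05, and 1 SE is the change over the square root of its F. The 95% intervals are the change ± 1.96 SE. This multiplier ignores the limited degrees of freedom, so the intervals are somewhat too narrow. The numbers pair the libraries, since all 30 same-number pairs correlated above 0.1 and 15 of 15 libraries correlated best with their own number. What a number stands for is not stated, nor whether replicates were separate cultures, so p-values measure the spread between these libraries. CPM use TMM-scaled library sizes, and RPKM the exonic length in GENCODE 29, whose gene set may differ from that used for counting.

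The members and the gene lists were chosen with earlier results of these data known. All 10 members are named, with up to 4 genes per list by smallest p at 0.04 mM in the fit with the block and the 3 most alike genes per member. Count ratios were compared by a 2-sided exact permutation test (scipy 1.17.1). Alternatives were DESeq2 1.42.0, its size factors, ERCC scaling, no filter beyond 1 count, offsets for GC content and length from splines of 4 degrees of freedom, the compared groups alone, and leaving out single libraries or those with over 1% mitochondrial rRNA. The code was tested on simulated data.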

Additional observations from a re-analysis of the deposited data

How the results depend on the processing

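With the replicate number as a block, 3, 2, 2, 0, 2 and 0 members passed at the 4 concentrations in rising order, in the mean of the limited groups and between 0.04 and 0.28 mM, and 1859, 1149, 2050, 287, 2358 and 6 of all genes. Without the block 0 members passed in each, and 6, 0, 2, 0, 40 and 0 of all genes. Of member values under alternatives to the fit with the block, 671 kept their side of the threshold, 38 lost a call and 7 gained one, and no called value changed sign. The losses were 18 of GCLC, 9 of GCLM and 11 of GSS, and the gains were all of GPX1.

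In the fit with the block, ERCC scaling left 1, 1, 0 and 1 members at 0.04, 0.12 and 0.20 mM and in the mean. It left 506 genes at 0.04 mM (282 rose and 224 fell, against 997 and 862), 421 genes at 0.20 mM (141 and 280), 120 genes at 0.28 mM (18 and 102) and 1350 genes in the mean (218 and 1132), and at 0.12 mM 76 rose and 1130 fell, against 610 and 539. It moved the median of all genes to -0.18 at 0.12 mM, -0.13 at 0.28 mM and 0.13 between 0.04 and 0.28 mM. The GC and length offset left 1 member at 0.04, 0.12 and 0.20 mM, and 951 genes at 0.20 mM and 2 between 0.04 and 0.28 mM. DESeq2 passed 1 member at 0.12 mM and 14 genes between 0.04 and 0.28 mM. Without the libraries over 1% mitochondrial rRNA 1 member passed at 0.04 and at 0.12 mM. Chosen after the data were seen, no filter beyond 1 count passed 1 member at 0.12 mM, and 1 member and 63 genes between 0.04 and 0.28 mM, and the compared groups alone gave 1 member and 292 genes at 0.12 mM, 1189 genes at 0.04 mM, and 1 member and 78 genes between 0.04 and 0.28 mM.

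With single libraries left out in the fit with the block, members passing ranged over 1 to 3 at 0.04 mM, 0 to 2 at 0.12 mM, 1 to 2 at 0.20 mM and 1 to 2 in the mean, and all genes over 956 to 2056, 537 to 1440, 976 to 1865, 24 to 774 (at 0.28 mM), 1456 to 2391 and 1 to 16 (0.04 against 0.28 mM). Without the block, genes passing were 148, 23, 41, 1 and 245 by DESeq2 at the 4 concentrations and in the mean, 159, 58, 84, 19, 248 and 7 with no filter, 10 and 18 with its size factors at 0.04 mM and in the mean, 0 with ERCC scaling at 0.04 and 0.20 mM and in the mean, 0 with the compared groups alone at 0.04 and 0.20 mM, and 0 to 36, 0 to 5, 0 to 2 and 0 to 40 with single libraries left out at 0.04, 0.12 and 0.20 mM and in the mean. The cause of these differences was not tested.

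With the replicate numbers paired, an exact sign-flip test gave p = 0.25 for GSS over GCLC at 0.04 mM (difference -0.73), 0.25 for GPX4 over GPX1 (0.61) and 1.0 for GCLM over GCLC (0.03), 0.25 being the smallest that 3 pairs allow. Leaving out single libraries gave -0.90 to -0.56, 0.17 to 1.13 and -0.10 to 0.16. GCLM over GCLC turned negative without replicate 2 at 0.04 mM (-0.10) and without replicate 2 (-0.03) or replicate 3 (-0.04) of full medium. Fitting the compared groups alone has no form for the mean of the limited groups. GPX2 had 0 to 14 counts per library.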
